A study of Homo sapiens with 6 samples.

Results

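Myosins, tropomyosins and alpha-actinins are the motor, filament-coating and cross-linking proteins of the actin cytoskeleton. The genes described here are the rows of the count table whose symbols follow the naming of myosin heavy chains (MYH and a number), numbered myosin light chains (MYL), unconventional myosins (MYO), tropomyosins (TPM) and alpha-actinins (ACTN), together with MYLK and MYLIP. The rule also lists MYLK3, which was not among the rows analysed here. It matched 36 of the 18544 genes of the table, under 35 symbols because MYO15B has 2 rows. The choice used gene names only.

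The cells were HMEC-1, an immortalised line of human dermal microvascular endothelial cells. Set7KD cells (n = 3 libraries) carried a lentivirally delivered shRNA against Set7, the lysine methyltransferase encoded by SETD7, and NTC cells (n = 3 libraries) carried a non-targeting shRNA delivered in the same way. Both groups were therefore transduced cells of a single line, grown in MCDB131 medium at 5.5 mM glucose. The number of hairpins, and whether the cells were clones or pools, are not stated, so a change cannot be told apart from an effect of the hairpin sequence itself. The question asked of these genes is whether their transcript levels differ after SETD7 knockdown.

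Non-muscle myosin II is a hexamer of a pair of heavy chains, which hold the motor, and pairs of essential and regulatory light chains. Phosphorylation of the regulatory light chain switches the motor on, and in endothelium the resulting tension opens cell junctions and shapes the response to flow and to a stiff matrix. Tropomyosins lie along the actin filament and set which myosins and severing proteins reach it, while alpha-actinins cross-link filaments into stress fibres and tie them to adhesions. Unconventional myosins carry membranes and cargo along actin or tether them to it.

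Depth was 16385878 to 16953331 gene counts per library, and 1 count equalled 0.059 to 0.061 CPM (library-scaled counts, from library sizes corrected by edgeR's TMM method). SETD7 itself stood at 27.8, 43.8 and 26.7 CPM in Set7KD replicates 1 to 3, against 180.5, 178.4 and 176.1 CPM in NTC replicates 1 to 3. Its log2 fold change was -2.44 with a standard error of 0.21 (edgeR quasi-likelihood test, Benjamini-Hochberg adjusted p = 0.000927). Of 10 endothelial markers with a row, CDH5, the cadherin of endothelial junctions, averaged 119 ± 11.4 CPM in Set7KD and 206 ± 32.1 CPM in NTC (SD, n = 3 each). VWF, the clotting factor that defines endothelium, was low in both groups, at means of 10.1 CPM in Set7KD and 9.70 CPM in NTC, while PECAM1 and CLDN5 were not analysed here. The endothelial markers summed to 589 to 624 CPM in Set7KD and to 642 to 805 CPM in NTC. Of the 10, 4 (40%) were called lower and 3 (30%) higher, beside 18.6% and 17.6% of all 18482 tested genes in the same order. The 3 higher ones were KDR, a receptor of VEGF, at 27.8 ± 3.39 CPM in Set7KD and 17.3 ± 3.63 CPM in NTC (SD, n = 3 each), and TEK and ENG, with log2 fold changes of 0.68, 0.38 and 0.30 in that order. None of these 3 was called without both libraries of replicate 1, and CDH5 was not called without both libraries of replicate 2.

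Several of the genes below are also expressed by contractile and mesenchymal cells, so the markers of those cells are given beside them. The shares to set beside each list are those of all tested genes, 17.6% called higher and 18.6% lower. Of 10 smooth muscle and pericyte markers with a row, 6 were called higher (60%) and 0 lower. Their sum was 768 to 1051 CPM in Set7KD against 389 to 429 CPM in NTC. TAGLN, the calponin relative SM22, made up much of that sum with 551 ± 116 CPM in Set7KD and 96.3 ± 16.8 CPM in NTC. At a mean of at least 20 CPM, 2 of 5 of these markers were called (40%), beside 47.5% of all genes at that level. ACTA2, an actin of this list, was not called, with overlapping groups at 43.9 ± 3.82 CPM in Set7KD and 38.2 ± 4.58 CPM in NTC (edgeR adjusted p = 0.0999). DES and KCNMB1, which define mature smooth muscle, were not among the rows. Of 7 fibroblast markers, 5 were called higher and 0 lower, with sums of 3224 to 4183 CPM in Set7KD and 1506 to 2070 CPM in NTC, and 3 were called higher without both libraries of replicate 1. Of 12 markers written for skeletal and cardiac muscle only TTN and ACTA1 had a row, with sums of 52.8 to 62.7 CPM in Set7KD and 41.6 to 51.5 CPM in NTC, both called higher. TTN, which carries that sum, lost its call without Set7KD replicate 3, NTC replicate 1 or NTC replicate 2 (highest edgeR adjusted p = 0.0725). It also lost the call without both libraries of replicate 1 (edgeR adjusted p = 0.149). The 5 epithelial markers with a row summed to 259 to 276 CPM in Set7KD and to 246 to 290 CPM in NTC, with 1 of the 4 tested called lower. The part of any such cells in the results was not tested, and fewer cells of a type and less RNA per cell cannot be told apart in these libraries.

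All 36 rows passed the filter on low counts and were tested. At an edgeR adjusted p under 0.05, 12 were called higher in Set7KD, 7 were called lower and 17 were not called. The called share was 52.8%, beside 36.2% of all 18482 tested genes. By direction it was 33.3% higher, beside 17.6% of all genes, and 19.4% lower, beside 18.6%. More highly expressed genes were called more often: among members with a mean of at least 20 CPM, 15 of 25 were called (60%), beside 47.5% of all genes at that level. Of those 25, 11 were higher and 4 lower, beside 25.8% and 21.7% of all genes at that level in the same order. The median log2 fold change of the members was 0.01, beside -0.01 for all tested genes. CPM of the groups did not overlap in 21 members (58.3%), beside 47.4% of all tested genes.

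The calls are given by subfamily, beside 17.6% of all tested genes called higher and 18.6% called lower. All 4 tropomyosins and both alpha-actinins rose, whereas of 5 class II heavy chains 0 were called higher and 1 was called lower (20%). Light chains divided into 2 called higher (33.3%), 2 called lower (33.3%) and 2 not called. The 17 rows of unconventional myosins divided into 4 called higher (23.5%), 4 called lower (23.5%) and 9 not called. These shares of unconventional myosins are near those of all tested genes. At a mean of at least 20 CPM, 40% of the unconventional myosins were called, beside 47.5% of all genes at that level. Neither the light chain kinase MYLK nor the ubiquitin ligase MYLIP was called. The median log2 fold change was 0.40 for tropomyosins, 0.42 for alpha-actinins, 0.01 for unconventional myosins, -0.11 for light chains and -0.15 for heavy chains.

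**Figure D1:**
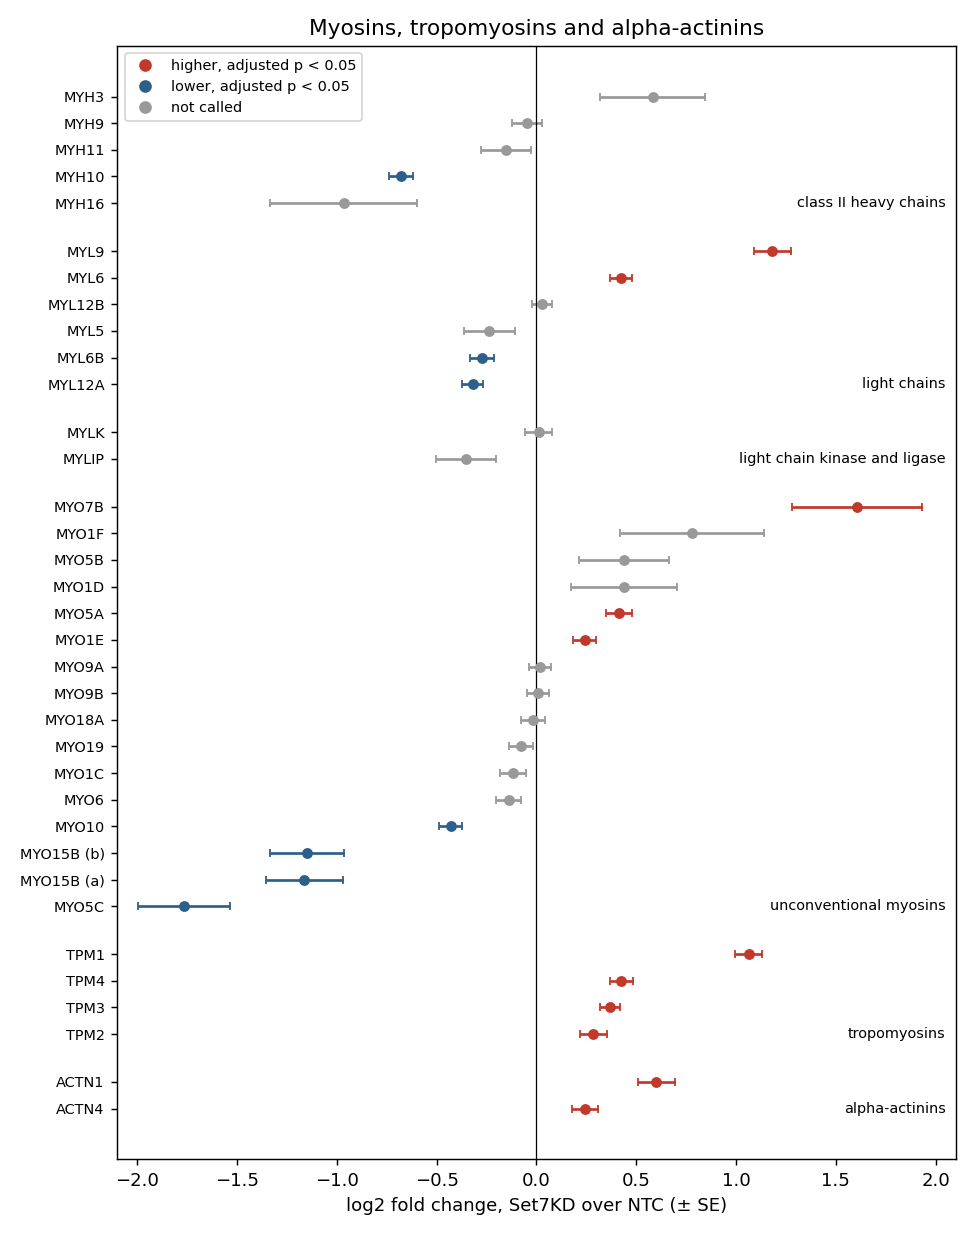
Log2 fold change of Set7KD over NTC for 35 of the 36 rows, by subfamily, with bars of 1 standard error and colours for the edgeR call at an adjusted p under 0.05. All 4 tropomyosins and both alpha-actinins lie to the right of 0, and the values run from -1.77 for MYO5C to 1.61 for MYO7B; MYO15B (a) is ENSG00000188126 and (b) is ENSG00000266714.

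Serum response factor (SRF), a transcription factor of contractile genes, binds the CArG box, in which a run of A or T lies between CC and GG. Promoter windows were searched for it because SRF is known to act on contractile genes and several members moved together. The windows, from RefSeq on GRCh38.p14, reach from 250 bases before a gene's start to 50 after it, and the motif reads the same on both strands. At least 1 window held a match in 4 of 30 member genes with an entry (13.3%), beside 438 of 27305 genes in the table of promoters (1.6%). Genes differ in their number of windows. By window the shares were 8.33% of 48 member windows and 1.29% of 35116 windows. The table of promoters is not limited to the genes tested here. The matches lay in ACTN1, TPM4, MYO1E and MYLK. Each is given from 25 bases before to 25 after the match, with the match in capitals, 5′ to 3′ on the gene's strand. ACTN1 is at chr14:68977703-68977762 on the minus strand with the match ending 161 bases before the start, TPM4 at chr19:16067340-16067399 on the plus strand with 163 bases between, MYO1E at chr15:59372868-59372927 on the minus strand with 21 bases between, and MYLK at chr3:123620608-123620667 on the minus strand with 84 bases between.
ACTN1: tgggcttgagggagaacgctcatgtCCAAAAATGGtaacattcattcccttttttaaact
TPM4: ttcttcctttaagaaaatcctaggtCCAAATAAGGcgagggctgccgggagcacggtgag
MYO1E: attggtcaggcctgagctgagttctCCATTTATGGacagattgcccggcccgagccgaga
MYLK: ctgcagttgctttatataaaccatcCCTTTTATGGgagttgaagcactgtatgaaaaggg
By call, a match was found in 3 of the 10 genes called higher that had a promoter entry, in 0 of the 6 called lower and in 1 of the 14 not called. The same split over all tested genes was not counted, so these few genes have no background by direction. TPM1 had an entry without a match and was called higher, and MYL9 had no entry. A match of letters is a description of the window and not of binding, which was not measured.

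Among the class II heavy chains, the motor subunits of bipolar filaments, MYH10 fell and MYH9 was not called. MYH9 (ENSG00000100345.15), the heavy chain of non-muscle myosin IIA, was the most abundant member, at 2978, 2543 and 2938 CPM in Set7KD against 2933, 2653 and 3156 CPM in NTC. The groups overlapped, and the log2 fold change of -0.05 (SE 0.08, edgeR adjusted p = 0.657) had a 95% interval of -0.20 to 0.10. MYH10 (ENSG00000133026.8), the heavy chain of the slower and more tension-holding non-muscle myosin IIB, had 340.1, 358.5 and 314.8 CPM in Set7KD, against 555.9, 504.3 and 563.3 CPM in NTC. Every Set7KD library lay below every NTC library, and the log2 fold change was -0.68 (SE 0.06, edgeR adjusted p = 9.37e-07). Set7KD cells thus held 338 ± 22.0 CPM of MYH10 and NTC cells 541 ± 32.1 CPM (SD, n = 3 each), a ratio of 0.624.

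The heavy chains of muscle were near the floor or low. MYH11, the smooth muscle heavy chain, averaged 9.54 ± 0.72 CPM in Set7KD and 10.6 ± 1.58 CPM in NTC (SD, n = 3 each), with overlapping groups and a log2 fold change of -0.15 (95% interval -0.40 to 0.09, edgeR adjusted p = 0.363). MYH3, the embryonic skeletal heavy chain, stood at 1.45, 1.24 and 1.84 CPM in Set7KD against 0.877, 1.2 and 0.936 CPM in NTC and was not called (edgeR adjusted p = 0.0957). MYH16, annotated as a unitary pseudogene, had 0.545, 0.371 and 0.612 CPM in Set7KD against 0.760, 0.783 and 1.46 CPM in NTC, on a sum of 76 counts. Its edgeR adjusted p was 0.0501 without a block and 0.029 with the replicate number as a block, a fit that called 42.8% of all tested genes.

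The regulatory light chains of non-muscle myosin II diverged. MYL9 (ENSG00000101335.5), a regulatory light chain also known from smooth muscle, had 321, 258 and 326 CPM in Set7KD, against 142, 123 and 134 CPM in NTC. The lowest Set7KD library lay well above the highest NTC library, and the log2 fold change was 1.18 (SE 0.09, edgeR adjusted p = 8.87e-06), or 2.27-fold. MYL12A (ENSG00000101608.6), a ubiquitous regulatory light chain, had 258, 271 and 243 CPM in Set7KD, against 314, 328 and 323 CPM in NTC. That fall was smaller but without overlap, with a log2 fold change of -0.32 (SE 0.05, edgeR adjusted p = 0.000277). MYL12B (ENSG00000118680.8), its close paralogue, had 256, 265 and 264 CPM in Set7KD against 257, 264 and 249.7 CPM in NTC. Here the groups overlapped, and the log2 fold change of 0.03 had a 95% interval of -0.07 to 0.12 (edgeR adjusted p = 0.709). MYL12A and MYL12B lie close in sequence. Of all stretches of 36 bases in their exons, 4.23% of MYL12A occur in MYL12B and 7.32% of MYL12B occur in MYL12A. In any other gene the shares were 8.36% for MYL12A and 11.1% for MYL12B, so their counts may be partly shared. For MYL9 the share in any other gene was 0.284%.

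The essential light chains, which stiffen the lever arm of the motor, also moved in opposite directions. MYL6 (ENSG00000092841.13), the main non-muscle and smooth muscle essential light chain, had 1165, 1069.8 and 1153 CPM in Set7KD, against 849, 852 and 821 CPM in NTC. All Set7KD libraries were higher, with a log2 fold change of 0.43 (SE 0.05, edgeR adjusted p = 2.82e-05). MYL6B (ENSG00000196465.5), an essential chain found in slow muscle and non-muscle tissue, had 52.0, 49.9 and 50.3 CPM in Set7KD against 64.2, 58.6 and 61.1 CPM in NTC. It fell without overlap, by 0.27 on the log2 scale (SE 0.06, edgeR adjusted p = 0.00259), and lost the call when both libraries of replicate 1 were left out (edgeR adjusted p = 0.0698). MYL6 and MYL6B have overlapping loci in GENCODE, and how reads in the overlap were counted is not stated. MYL5, a rarely studied regulatory chain, averaged under 10 CPM in both groups and was not called, with a log2 fold change of -0.24 (edgeR adjusted p = 0.164).

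The kinase that phosphorylates the regulatory light chains was measured with little change. MYLK (ENSG00000065534.14) had 149.2, 151.4 and 145.7 CPM in Set7KD and 150.4, 131 and 161.3 CPM in NTC. Its groups overlapped, and the log2 fold change of 0.01 had a 95% interval of -0.12 to 0.14 (edgeR adjusted p = 0.912). MYLIP, a ubiquitin ligase first named for binding the light chain and best known for degrading the LDL receptor, had 27.3, 32.9 and 25.1 CPM in Set7KD against 36.3, 43.1 and 29.7 CPM in NTC. The groups overlapped, yet in each replicate number the Set7KD library was the lower one. Its log2 fold change was -0.35 (SE 0.15), with an edgeR adjusted p of 0.101 without a block and 0.000589 with the replicate number as a block.

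The 4 tropomyosins all rose, TPM1 by far the most. TPM1 (ENSG00000140416.14), which encodes many isoforms from muscle and non-muscle promoters, had 908, 772 and 935 CPM in Set7KD against 428, 413 and 409 CPM in NTC. Set7KD levels were 2.09-fold higher without overlap, at a log2 fold change of 1.06 (SE 0.07, edgeR adjusted p = 6.12e-08). TPM4 (ENSG00000167460.10), a tropomyosin of non-muscle stress fibres, had 574, 515 and 587 CPM in Set7KD against 412, 423 and 412 CPM in NTC. It rose by 0.43 on the log2 scale (SE 0.06, edgeR adjusted p = 4.04e-05). TPM3 (ENSG00000143549.14), another gene with short non-muscle isoforms, had 262, 254 and 276 CPM in Set7KD against 207, 203 and 203 CPM in NTC, a log2 fold change of 0.37 (SE 0.05, edgeR adjusted p = 5.54e-05). TPM2 (ENSG00000198467.7), with isoforms of muscle and of fibroblasts, was the least abundant of the group, at 94.2, 83.7 and 87.4 CPM in Set7KD against 73.9, 77.2 and 66.6 CPM in NTC. Its log2 fold change was 0.29 (SE 0.07, edgeR adjusted p = 0.00334), and the call was lost without both libraries of replicate 1 (edgeR adjusted p = 0.0888). In none of the 4 did the groups overlap. Of the 36-base stretches of TPM4, 13.7% occur in another gene, beside 1.91% for TPM1 and 5.64% for TPM3. Counts per gene do not separate the isoforms of a tropomyosin gene.

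Both alpha-actinins rose as well, ACTN1 more than ACTN4. ACTN1 (ENSG00000072110.9), the alpha-actinin of stress fibres and adhesions, had 978, 787 and 1004 CPM in Set7KD against 623, 559 and 645 CPM in NTC. The increase was 1.52-fold, with a log2 fold change of 0.60 (SE 0.09, edgeR adjusted p = 0.000698). ACTN4 (ENSG00000130402.7), its non-muscle paralogue that also enters the nucleus, had 716, 624 and 726 CPM in Set7KD against 615, 549.6 and 581 CPM in NTC. Groups did not overlap, but the lowest Set7KD library was close to the highest NTC library. The log2 fold change was 0.24 (SE 0.06, edgeR adjusted p = 0.00809), and without Set7KD replicate 1 the call was lost (edgeR adjusted p = 0.0504), as it was without both libraries of replicate 1 (edgeR adjusted p = 0.0995).

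**Figure D2:**
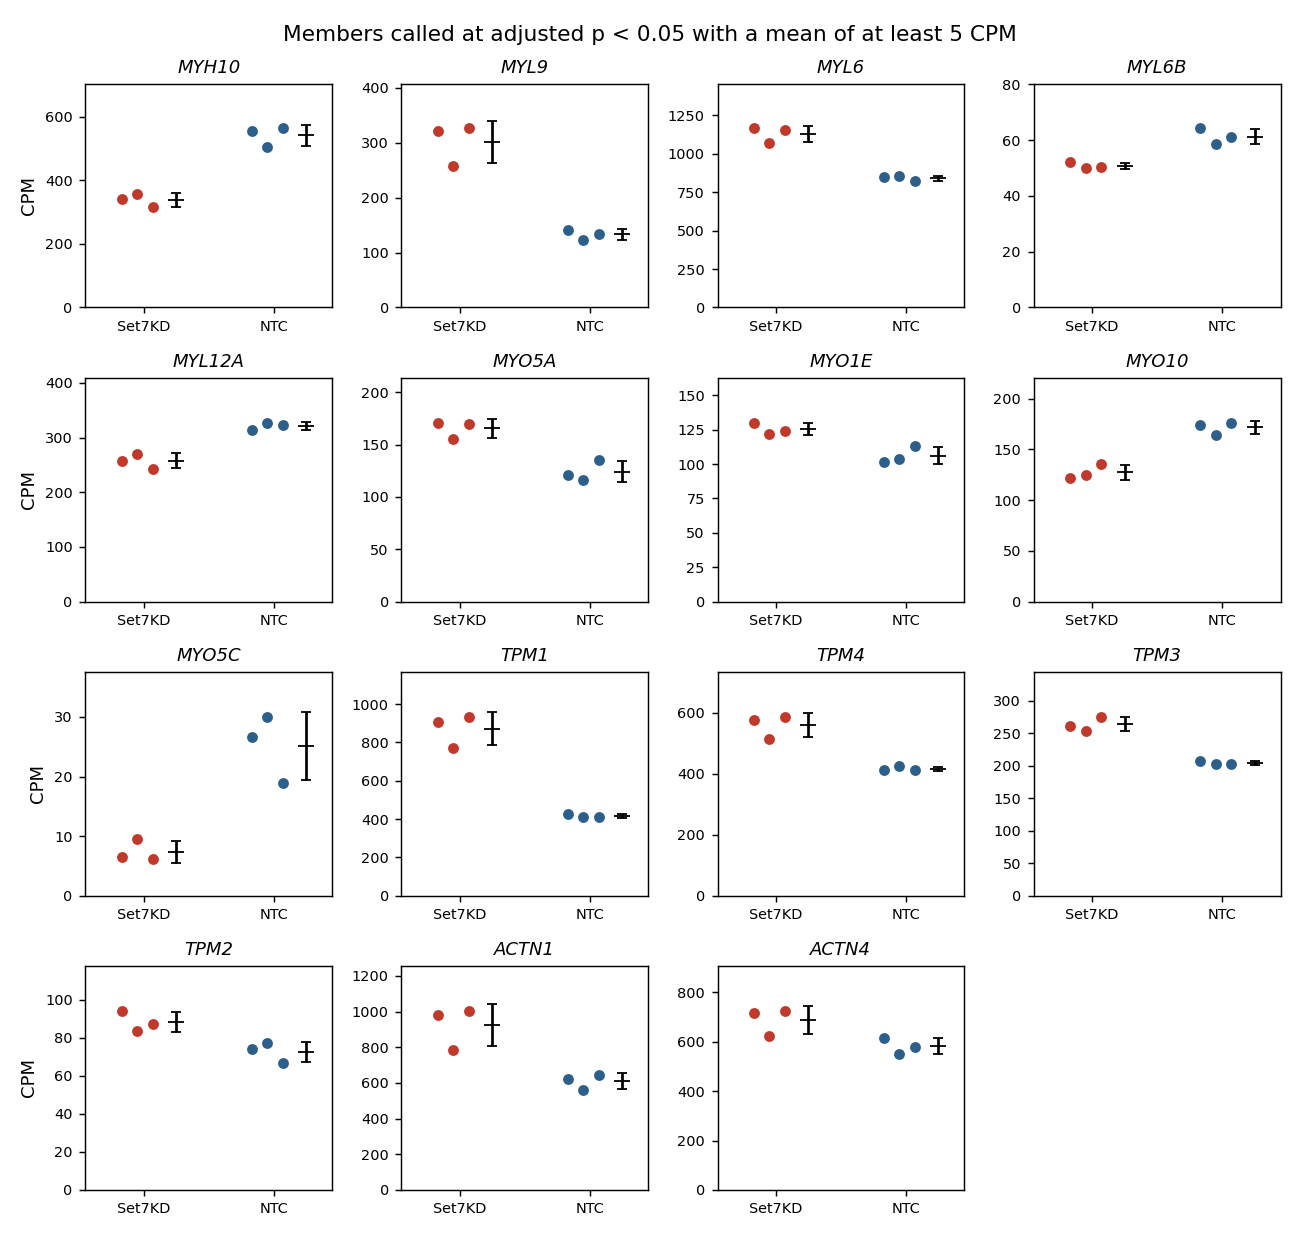
CPM of 15 of the 16 members called at an edgeR adjusted p under 0.05 with a mean of at least 5 CPM, 1 panel per gene, each axis starting at 0, with 1 point per library and, beside each group, its mean with bars of 1 SD (n = 3 each). In every panel the points of Set7KD and NTC do not overlap. Relative to the axis of their own panel, MYL9 and TPM1 show the widest gaps among the members that rose. Their means are 301.5 CPM in Set7KD and 132.9 CPM in NTC for MYL9, and 872 CPM in Set7KD and 417 CPM in NTC for TPM1.

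Among the unconventional myosins that rose were motors of membrane and vesicle traffic. MYO5A (ENSG00000197535.10), a processive vesicle carrier, had 171, 155 and 170.0 CPM in Set7KD against 121, 116 and 135 CPM in NTC, a log2 fold change of 0.41 (SE 0.06, edgeR adjusted p = 0.000142), without overlap of the groups. MYO1E (ENSG00000157483.4), a class I myosin of endocytic sites, had 130.2, 122 and 124 CPM in Set7KD against 101, 104 and 113 CPM in NTC. Its log2 fold change was 0.24 (SE 0.06, edgeR adjusted p = 0.00399), and the call was lost without both libraries of replicate 1 (edgeR adjusted p = 0.157). MYO7B, a motor of brush border microvilli, was called at a low level, with 3.45, 1.61 and 3.25 CPM in Set7KD against 1.29, 0.723 and 0.702 CPM in NTC. The difference rests on 182 counts over the 6 libraries and came to 1.61 on the log2 scale (SE 0.33, edgeR adjusted p = 0.00187).

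The unconventional myosins that fell included a filopodial motor and a relative of MYO5A. MYO10 (ENSG00000145555.10), which builds filopodia and carries integrins to their tips, had 122, 125 and 136 CPM in Set7KD against 174.5, 165 and 177 CPM in NTC. The groups were well apart, with a log2 fold change of -0.43 (SE 0.06, edgeR adjusted p = 3.43e-05). MYO5C (ENSG00000128833.8), a class V myosin of secretory granules in epithelia, had 6.47, 9.52 and 6.19 CPM in Set7KD against 26.6, 30.0 and 18.8 CPM in NTC. Its log2 fold change of -1.77 (SE 0.23, edgeR adjusted p = 0.00101) was the lowest of the 36, and the level in Set7KD was 0.294 of that in NTC. The 2 rows of MYO15B, the gene of a myosin related to the hearing motor MYO15A, held nearly the same values and both fell, with log2 fold changes of -1.16 and -1.15 (SE 0.19 for both, edgeR adjusted p = 0.000239 and 0.000199). They averaged under 5 CPM and may count many of the same reads, so with MYO15B counted once the members called lower number 6 of 35.

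The remaining unconventional myosins were not called, among them 5 with a mean above 100 CPM. MYO1C (ENSG00000197879.9), a tether of glucose transporter vesicles and the most abundant unconventional myosin, had 531, 455 and 521 CPM in Set7KD against 563, 509 and 563 CPM in NTC. Its groups overlapped and its log2 fold change was -0.12 (SE 0.07), with an edgeR adjusted p of 0.171 without a block and 0.0246 with the replicate number as a block. MYO6 (ENSG00000196586.8), the motor that walks to the pointed end of actin, had 142, 155 and 134 CPM in Set7KD against 148, 158 and 168 CPM in NTC. With overlapping groups it had a log2 fold change of -0.14 and a 95% interval of -0.26 to -0.01 (edgeR adjusted p = 0.0999), and without Set7KD replicate 2 it passed (edgeR adjusted p = 0.0221). MYO9B (ENSG00000099331.8), a class IX myosin, had 207, 184 and 199.9 CPM in Set7KD against 204, 189 and 196 CPM in NTC, a log2 fold change with a 95% interval of -0.10 to 0.12 (edgeR adjusted p = 0.932). MYO18A (ENSG00000196535.9), a Golgi-associated myosin, had 126, 115 and 108.5 CPM in Set7KD against 117, 117 and 119 CPM in NTC (95% interval of the log2 fold change -0.13 to 0.10, edgeR adjusted p = 0.841). MYO19 (ENSG00000141140.12), the mitochondrial myosin, had 144, 128.5 and 141 CPM in Set7KD against 151, 149 and 136 CPM in NTC (95% interval -0.19 to 0.04, edgeR adjusted p = 0.349). These 3 overlapped between groups. MYO9A, the paralogue of MYO9B, with a log2 fold change of 0.02, was not called either. MYO1D, MYO1F and MYO5B had sums of 134, 72 and 208 counts over the 6 libraries and log2 fold changes of 0.44, 0.78 and 0.44, which did not pass (edgeR adjusted p = 0.219, 0.102 and 0.143).

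The changes altered the make-up of the subfamilies. Levels were compared between genes as CPM per kilobase of exon, with exon lengths from GENCODE 29. Each length joins all annotated exons of a gene and is not that of the isoforms expressed. TPM1 made up 35.4 ± 1.10% of tropomyosin CPM per kilobase in Set7KD and 25.4 ± 0.53% in NTC (SD, n = 3 each). TPM4 stood at 33.9% in Set7KD and 37.9% in NTC on that scale. By these means the gene with the highest per-length level was TPM1 in Set7KD and TPM4 in NTC. In Set7KD replicate 2 the genes were nearly level, at 34.1% for TPM1 and 34.0% for TPM4. The order depends on the lengths. Of summed CPM, TPM1 held 48.8% and TPM4 31.4% in Set7KD, and 37.6% and 37.5% in NTC in the same order. The summed CPM of the 4 tropomyosins averaged 1783 ± 138.6 in Set7KD and 1109.5 ± 17.3 in NTC (SD, n = 3 each), a ratio of 1.61. For light chains the sums averaged 2008 ± 74.8 CPM in Set7KD and 1623 ± 22.3 CPM in NTC (SD, n = 3 each), a ratio of 1.24. By contrast the heavy chains summed to 3169 ± 225 CPM in Set7KD and 3468 ± 284 CPM in NTC, a ratio of 0.914, with MYH9 at 89.0% and 84.1% of the per-length level in the same order. MYL9 took 18.3% of light chain CPM per kilobase in Set7KD and 9.77% in NTC, while MYL12A took 13.6% in Set7KD and 20.5% in NTC. Unconventional myosins summed to 1793 ± 66.3 CPM in Set7KD and 1814 ± 51.6 CPM in NTC.

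**Figure D3:**
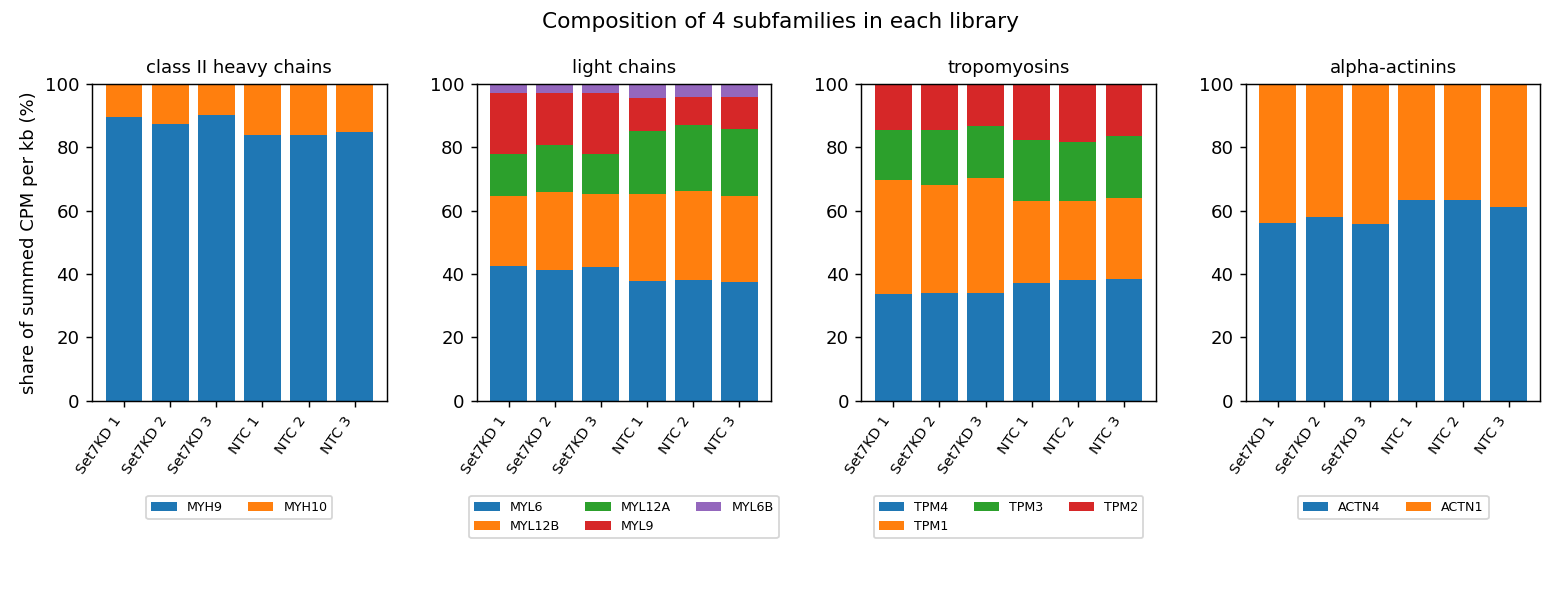
Share in percent of the summed CPM per kilobase of exon that each gene held within class II heavy chains, light chains, tropomyosins and alpha-actinins, 1 stacked bar per library with the 3 Set7KD libraries left of the 3 NTC libraries, genes under 2% omitted. The TPM1 and MYL9 segments are taller in each Set7KD library than in any NTC library, with mean shares of 35.4% in Set7KD and 25.4% in NTC for TPM1.

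Ratios within a library do not depend on how libraries were scaled, so 7 pairs of members were compared this way. MYL9 over MYL12A had a mean log2 ratio of 0.22 in Set7KD and -1.28 in NTC, a 2.82-fold shift, with a single Set7KD library, replicate 2, just below 0 at -0.07. MYO5A over MYO5C stood at 4.51 in Set7KD and 2.33 in NTC on the log2 scale. MYL6 over MYL6B stood at 4.48 in Set7KD and 3.78 in NTC, and TPM1 over TPM3 at 1.72 in Set7KD and 1.03 in NTC. Smaller shifts were found for MYH10 over MYH9, with -3.06 in Set7KD and -2.43 in NTC, for ACTN1 over ACTN4, with 0.42 in Set7KD and 0.07 in NTC, and for MYL12A over MYL12B, with -0.02 in Set7KD and 0.32 in NTC. In each of the 7 pairs all Set7KD libraries lay on 1 side of all NTC libraries. For MYL9 over MYL12A, MYL6 over MYL6B and MYO5A over MYO5C that had to follow from the single genes. In those pairs both genes had groups without overlap and moved in opposite directions. The pairs were chosen with earlier results known and other pairs were not counted, so the separation is a description. The exact two-sided permutation p was 0.1 for each pair, and 0.1 after Benjamini-Hochberg adjustment over the 7 pairs, which is the smallest p that 3 against 3 libraries can give. These are ratios of CPM, and dividing by exon length leaves each difference unchanged.

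The Set7KD libraries did not stand equally far from NTC. Of the 19 called members, 14 had Set7KD replicate 2 as the Set7KD library nearest to the NTC mean (73.7%), beside 45.2% of all 6690 called genes. Set7KD replicate 2 was also the library with the highest SETD7 level of its group, at 43.8 CPM. TPM1, MYL9 and ACTN1 show it, at 772, 258 and 787 CPM in that library. The NTC mean is over all NTC libraries, so this count leaves out the pairing by replicate number. NTC replicate 2 was itself the lowest NTC library for MYL9 and ACTN1, at 123 and 559 CPM, though not for TPM1, at 413 CPM. The order was noticed after the values were seen. Its relation to the residual SETD7 level, or to a shift shared by both libraries of replicate 2, was not tested. Leaving out Set7KD replicate 2 kept all 16 calls of the members named by rule. It moved the log2 fold change of TPM1 to at most 1.15 and of MYL9 to at most 1.28. These are the highest values over the 6 single libraries left out.

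Words of 7 bases, ATGAATC and TGAATCA, had been picked out by an earlier scan of the 3′ UTRs of these same data, where genes with either word were lower in Set7KD, so what follows is a description. A 3′ UTR with either word was annotated for 8 of 33 members (24.2%), beside 2511 of 12889 genes of the table (19.5%). By call, it was found in 4 of 6 members called lower, namely MYH10, MYO10, MYO5C and MYL12A, and in 2 of 12 called higher, MYO5A among them. Of the 15 members not called it was found in 2, MYH9 and MYO6. Over all tested genes the share was 25.3% of those called lower, 16.0% of those called higher and 18.5% of those not called. Whether the hairpin acted on these transcripts through such a word was not tested.

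Genes that control phosphorylation of the regulatory light chain were called higher in 12 (38.7%) and lower in 5 (16.1%) of 31 tested, beside 17.6% and 18.6% of all tested genes in the same order (median log2 fold change 0.12, beside -0.01 over all genes). At a mean of at least 20 CPM, 58.3% of the list was called, beside 47.5% of all genes at that level. CALM3, a gene of calmodulin, which activates MYLK, averaged 644 ± 13.0 CPM in Set7KD and 518 ± 22.0 CPM in NTC (log2 fold change 0.31, edgeR adjusted p = 0.000277, n = 3 each). PPP1R12A, the targeting subunit of myosin phosphatase, rose to 182 ± 5.09 CPM in Set7KD, against 146 ± 7.70 CPM in NTC (log2 fold change 0.33, edgeR adjusted p = 0.000289). ARHGEF12, an exchange factor that activates RhoA, fell to 365 ± 2.30 CPM in Set7KD, against 447 ± 12.2 CPM in NTC (log2 fold change -0.29, edgeR adjusted p = 0.000306). Without NTC replicate 1, 7 genes of this list were called higher and 3 lower, and 3 were called lower without Set7KD replicate 2 or Set7KD replicate 3. With both libraries of replicate 1 left out, 5 were called higher and 2 lower. Tested against a fold of 1.2, 1 gene of the list was called higher and 2 lower. At an edgeR adjusted p under 0.01 the counts were 7 higher and 3 lower. In 0 genes of the list did the change reach 1.5-fold. Counts over all genes under these settings are given in the closing section.

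Of 20 thin filament genes that work with tropomyosin, 11 were called higher (55%) and 3 lower (15%), beside 17.6% and 18.6% of all tested genes in the same order (median log2 fold change 0.28). At a mean of at least 20 CPM, 54.5% of the list was called, beside 47.5% of all genes at that level. The 6 genes not called included the actins ACTA2 and ACTG1 (edgeR adjusted p = 0.0999 and 0.533). Without both libraries of replicate 1 the number called lower was 1. Tested against a fold of 1.2, 8 were called higher and 2 lower. TMOD2, a cap of the pointed filament end that binds tropomyosin, averaged 21.1 ± 1.30 CPM in Set7KD and 9.89 ± 0.70 CPM in NTC (log2 fold change 1.09, edgeR adjusted p = 9.33e-07, n = 3 each). CALD1, caldesmon, which holds tropomyosin on the filament and restrains myosin, averaged 819 ± 27.2 CPM in Set7KD and 630 ± 19.9 CPM in NTC (log2 fold change 0.38, edgeR adjusted p = 6.04e-05). CNN1, smooth muscle calponin, averaged 9.16 ± 1.86 CPM in Set7KD and 0.979 ± 0.484 CPM in NTC (log2 fold change 3.21, edgeR adjusted p = 4.46e-06). ACTA1, skeletal actin, averaged 1.57 ± 0.35 CPM in Set7KD and 0.335 ± 0.037 CPM in NTC (log2 fold change 2.21, edgeR adjusted p = 9.44e-05). CNN1 is also on the list of smooth muscle markers given above, and ACTA1 on that of skeletal muscle.

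Of 23 partners of alpha-actinin, 10 were called higher (43.5%) and 3 lower (13%), beside 17.6% and 18.6% of all tested genes in the same order (median log2 fold change 0.22). At a mean of at least 20 CPM, 52.6% of the list was called, near the 47.5% of all genes at that level. PALLD, palladin, a scaffold of stress fibres, averaged 369 ± 13.6 CPM in Set7KD and 260 ± 27.9 CPM in NTC (log2 fold change 0.51, edgeR adjusted p = 6.65e-05, n = 3 each). VASP, which speeds filament growth at adhesions, averaged 67.5 ± 7.74 CPM in Set7KD and 48.2 ± 0.66 CPM in NTC (log2 fold change 0.49, edgeR adjusted p = 0.000159). PDLIM5, a Z disc and stress fibre adaptor, averaged 219 ± 21.4 CPM in Set7KD and 166 ± 4.48 CPM in NTC (log2 fold change 0.39, edgeR adjusted p = 0.000265). VCL, vinculin, which links alpha-actinin and actin to adhesions, moved the other way, with 377 ± 8.23 CPM in Set7KD and 488 ± 17.7 CPM in NTC (log2 fold change -0.37, edgeR adjusted p = 5.47e-05). Without NTC replicate 1 the number called lower was 1, and without NTC replicate 3 it was 5. Without both libraries of replicate 1, 5 partners were called higher and 1 lower. Tested against a fold of 1.2, 7 were called higher and 0 lower.

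Cargo adaptors of the unconventional myosins were called higher in 5 (21.7%) and lower in 5 (21.7%) of 23 (median log2 fold change 0.00). Both shares are near those of all tested genes, 17.6% higher and 18.6% lower. RAB10, a partner of MYO5A on transport vesicles, averaged 229 ± 5.23 CPM in Set7KD and 184 ± 6.77 CPM in NTC (log2 fold change 0.32, edgeR adjusted p = 0.000196, n = 3 each). DYNLL2, a light chain shared by MYO5A and dynein, averaged 144 ± 1.04 CPM in Set7KD and 114 ± 6.68 CPM in NTC (log2 fold change 0.33, edgeR adjusted p = 0.000251). RAB11FIP2, an adaptor of class V myosins on recycling endosomes, fell to 22.0 ± 1.54 CPM in Set7KD, against 31.3 ± 1.01 CPM in NTC (log2 fold change -0.51, edgeR adjusted p = 0.000142). OPTN, optineurin, a cargo adaptor of MYO6, fell to 122 ± 7.73 CPM in Set7KD, against 161 ± 4.43 CPM in NTC (log2 fold change -0.40, edgeR adjusted p = 6.79e-05). The number called lower was 3 without Set7KD replicate 1 or Set7KD replicate 3, and without both libraries of replicate 1 it was 3 higher and 2 lower. Tested against a fold of 1.2, 0 adaptors were called higher and 2 lower.

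Among 13 genes of myosin assembly and filament regulation, 2 were called higher and 1 lower (23.1% called, beside 36.2% of all tested genes; median log2 fold change -0.11). ANLN, anillin, which binds myosin II at the cleavage furrow, averaged 671 ± 17.4 CPM in Set7KD and 559 ± 70.7 CPM in NTC (log2 fold change 0.26, edgeR adjusted p = 0.0147, n = 3 each), and lost its call when any 1 of the 5 libraries other than NTC replicate 3 was left out (highest edgeR adjusted p = 0.0797). MPRIP, which brings myosin phosphatase to stress fibres, averaged 157 ± 9.04 CPM in Set7KD and 138 ± 5.17 CPM in NTC (log2 fold change 0.18, edgeR adjusted p = 0.0193) and lost it without Set7KD replicate 1 or NTC replicate 2 (highest edgeR adjusted p = 0.106). LIMCH1, an activator of non-muscle myosin II, averaged 26.6 ± 2.14 CPM in Set7KD and 31.4 ± 2.91 CPM in NTC (log2 fold change -0.24, edgeR adjusted p = 0.0431) and lost it without Set7KD replicate 1, Set7KD replicate 3, NTC replicate 1 or NTC replicate 2 (highest edgeR adjusted p = 0.228). Without NTC replicate 3, 2 genes of this list were called lower. Tested against a fold of 1.2, 0 were called higher and 0 lower, as at an edgeR adjusted p under 0.01.

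Of 10 transcription factors of contractile genes, 5 were called higher (50%) and 1 lower (10%), beside 17.6% and 18.6% of all tested genes in the same order (median log2 fold change 0.17). At a mean of at least 20 CPM, 57.1% of the list was called, beside 47.5% of all genes at that level. SRF itself averaged 85.7 ± 3.82 CPM in Set7KD and 88.6 ± 17.2 CPM in NTC and was not called (log2 fold change -0.05, edgeR adjusted p = 0.837, n = 3 each). MEF2A, a factor of muscle genes, averaged 135 ± 2.55 CPM in Set7KD and 103 ± 4.51 CPM in NTC (log2 fold change 0.39, edgeR adjusted p = 5.08e-05). TEAD4, a DNA-binding partner of YAP, averaged 61.2 ± 4.40 CPM in Set7KD and 45.5 ± 2.22 CPM in NTC (log2 fold change 0.43, edgeR adjusted p = 0.0002). GATA6 averaged 4.08 ± 0.59 CPM in Set7KD and 1.98 ± 0.51 CPM in NTC (log2 fold change 1.03, edgeR adjusted p = 0.00104). MEF2D, a relative of MEF2A, was the gene called lower, with 56.5 ± 3.02 CPM in Set7KD and 67.9 ± 6.07 CPM in NTC (log2 fold change -0.27, edgeR adjusted p = 0.00862), a call lost without both libraries of replicate 1. Without NTC replicate 3, 2 of these genes were called lower, and without both libraries of replicate 1, 3 were called higher and 0 lower. Tested against a fold of 1.2, 4 were called higher and 0 lower.

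**Figure D4:**
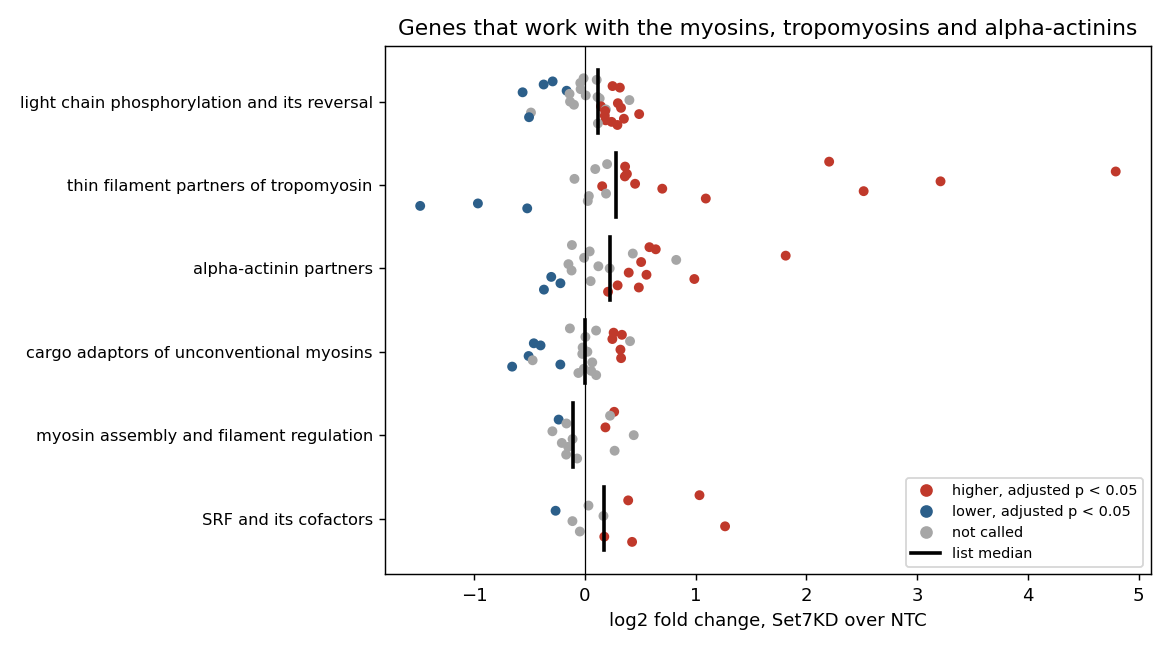
Log2 fold change of Set7KD over NTC for each tested gene of the lists of genes that work with the members, 1 point per gene coloured by its edgeR call at an adjusted p under 0.05, with a black line at the median of each list. The medians run from -0.11 for myosin assembly to 0.28 for thin filament partners of tropomyosin, beside -0.01 over all tested genes.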

How the data were processed

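Poly-A RNA of 6 cultures was sequenced, 3 Set7KD and 3 NTC, grouped and numbered by their titles. Per the labels' protocols, a Qiagen RNeasy kit, Dynabeads for poly-A selection and an Illumina mRNA-seq kit were used. BWA and bedtools, without versions, and the build hg19 are named per the submitters' processing notes. The values are raw read counts per gene, which the authors deposited as 1 table in which every gene had at least 60 counts over the 6 libraries. Strand and the treatment of reads with several matches are not given in the sources used here. A row for reads outside genes took 55.6 to 56.1% of each library's counts; it was dropped before library sizes and tests.

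Counts were tested by edgeR 4.0.16 under R 4.3.3 (filterByExpr, TMM, robust glmQLFit, glmQLFTest, group as the single factor), with Benjamini-Hochberg adjustment over 18482 genes and a call at an adjusted p under 0.05. CPM used TMM-scaled library sizes. Standard errors are the absolute log2 fold change over the square root of F, and 95% intervals are 1.96 standard errors to each side. On counts simulated for this comparison over 18440 genes, the test recovered 96 of 100 genes changed 1.5-fold and 100 of 100 changed 2-fold, with 14 false calls. The changed genes all averaged at least 100 counts per library, and every gene was given the same spread, without pairing. Recovery for genes with fewer counts or a wider spread was not tested. Within a group, chi-square per degree of freedom between pairs of libraries was 2.98 to 9.85, above counting noise, and none was counted as a repeat. The series' design text names biological triplicates; whether these were separate transductions is not given, so the spread behind the p-values may be technical.

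The members, lists and tests were chosen with earlier results of these data known. Values are given in full for members with an adjusted p under 0.05 and a mean of at least 5 CPM, and for members with a mean of at least 100 CPM; from each other list come up to 4 genes with the smallest p. SRF, TAGLN, CDH5, VWF, KDR, TEK, ENG, TTN, ACTA2 and ACTG1 lie outside that rule, as do the values of low members. This choice was made with their values in view. Deviations from group means of libraries sharing a replicate number had correlations of 0.302, 0.419 and 0.34 (11151 genes averaging at least 10 CPM). These lay above the minimum of 0.1 set for pairing. Equal numbers were treated as pairs in the replicate block and where both libraries of a replicate number were left out. The main test did not use the pairing, so its adjusted p values leave it out. With the block, 42.8% of all tested genes were called, beside 36.2% in the main test, and MYO1C, MYLIP and MYH16 were called lower. The pairing rests on the data alone, as the labels do not explain the numbers. Alternatives were other normalizations and filters, the replicate block, DESeq2 1.42.0, limma-voom (limma 3.58.1), edgeR's glmTreat at a fold of 1.2, a stricter adjusted p of 0.01, and libraries left out. Exon lengths, 36-base overlaps and 3′ UTRs came from GENCODE 29 by Ensembl identifier, on a later build than the counts, and were read in Python 3.11.15. Protein sequences were not used here. A member that was called higher and a gene of another list count in the totals but are not reported here by name.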

Additional observations from a re-analysis of the deposited data

How the results depend on the processing

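Over the 24 members named by rule and 18 alternative settings, 408 of the comparisons kept the direction and the side of the threshold, 11 lost the call, 3 gained one and 10 changed sign, all of the last in members that were not called. The members called higher numbered 12 and ranged from 8 to 13, and those called lower numbered 7 and ranged from 5 to 10. Tested against a fold of 1.2, 2 tropomyosins, 1 alpha-actinin and 2 light chains were called higher and 0 light chains lower, with adjusted p of 0.234 for MYL12A, 0.507 for TPM2, 0.586 for MYL6B, 0.792 for ACTN4, 0.0566 for TPM3 and 0.82 for MYO1E. Over all genes, 903 were then called higher and 1314 lower; at an adjusted p under 0.01 the counts were 2103 and 2197, and without both libraries of replicate 1 they were 1414 and 1558, beside 3250 and 3440. Without both libraries of replicate 1, 1 light chain was called lower and 1 alpha-actinin higher. With the replicate block, 2 heavy chains and 1 gene of the kinase and ligase pair were called lower and 10 members in all; it changed the call of MYO1C, MYLIP and MYH16 and of no other member. The kinase and ligase pair also had 1 gene called lower with DESeq2 and without both libraries of replicate 2 or 3, and 1 heavy chain was called higher without both libraries of replicate 2. Each single library left out gave 11 to 13 members called higher and 7 to 9 lower, with 1 to 2 alpha-actinins higher, 1 to 2 heavy chains, 2 to 3 light chains and 0 to 1 of the kinase and ligase pair lower, and 2422 to 3206 genes higher and 2542 to 3300 lower. Signs turned in uncalled members as libraries were left out, where the log2 fold change ran from -0.08016 to 0.05282 for MYO18A, from -0.02554 to 0.05457 for MYO9B, from -0.1107 to 0.02244 for MYH9 and from -0.07989 to 0.1091 for MYLK. The cause of these shifts was not tested beyond the smaller number of libraries or the stricter test that each setting brings. Depth limits MYH3, MYH16, MYO1D, MYO1F, MYO5B, MYO7B and MYO15B, which have few counts.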
